A study of Mus musculus with 8 samples.

Results

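Vasoconstrictor receptors are the cell surface proteins through which circulating and locally released ligands make vessels contract. The group examined here was defined by gene name and has 10 members: Avpr1a, Agtr1a, Ednra, Ednrb, Adra1a, Adra1b, Adra1d, Adra2b, Htr2a and Htr2b. Every probe set annotated to exactly 1 of these symbols was taken, which gave 8 of the 45037 probe sets in the deposited table. They belong to 5 members, with 2 probe sets for Avpr1a, 1 for Agtr1a, 3 for Ednrb, 1 for Adra1b and 1 for Htr2b. The other 5 members, Ednra, Adra1a, Adra1d, Adra2b and Htr2a, were named by no probe set in the annotation used and are not analysed here.

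Each of these receptors spans the membrane and signals through G proteins. Avpr1a binds vasopressin, Agtr1a binds angiotensin II, Ednrb binds endothelins, Adra1b binds noradrenaline and adrenaline, and Htr2b binds serotonin. In smooth muscle, receptors that couple to Gq activate phospholipase C, which releases calcium from internal stores and leads to myosin phosphorylation and contraction. Endothelin receptor B is best known on endothelial cells, where it promotes the release of relaxing factors, and it is also found on smooth muscle and on cells that arise from the neural crest.

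The data are Affymetrix array measurements of total RNA from the aorta of 4 month-old mice. The 4 mutant arrays came from SRF-flex2neo -SM22CreERT2ki/+ mice, in which a tamoxifen-inducible Cre placed at the locus of the smooth muscle protein SM22 (Tagln) deletes the gene of serum response factor (SRF), a transcription factor of muscle and cytoskeleton genes. The 4 control arrays came from SRF-flex2neo littermates without that Cre, so both groups carried the floxed gene, and both were given 1 mg of tamoxifen intraperitoneally on 3 days and sacrificed 8 days later. The Cre knock-in was in the mutants alone, so an effect of the insertion itself cannot be told apart from that of the deletion. The sample titles carry a set number, here called the title set; the labels do not say what it means. Title set 1 held controls 1 and 2 and mutants 1 and 2, and title set 2 held controls 3 and 4 and mutants 3 and 4. Nothing in the labels says whether 1 array stands for 1 mouse, so the p-values cover array-to-array spread that could be purely technical.

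Values are log2 signals per probe set, and a difference of 1 on this scale is a 2-fold difference. Array medians ran from 3.72 to 3.98, and the number of arrays limits the precision. Srf itself differed by -0.20 (SE 0.19) in its brighter probe set and by -0.03 (SE 0.15) in the other. Nothing used here tells whether they lie in the deleted part of the gene, so they do not check the deletion. The smooth muscle markers were measured in all 8 of 8 listed genes, at a mean log2 level of 13.84 to 13.90 in controls and 13.34 to 13.73 in mutants. Tagln, whose locus carries the Cre in the mutants alone, is among them.

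One array stood apart from the rest in a way that bears on the receptors. Mutant 2 exceeded every other array by at least 1 log2 unit in 1359 of the 27029 probe sets tested (5.03%), while for each of the other 7 arrays this held in 5 to 46 probe sets. All 6 measured markers of sympathetic neurons were among them, including the noradrenaline transporter Slc6a2, at 12.35 against 2.22 to 2.74 elsewhere, and dopamine beta-hydroxylase Dbh, at 11.66 against 2.77 to 3.19. The mean log2 level of this list was 10.60 in mutant 2, 3.12 to 3.24 in the other 3 mutants and 2.85 to 3.36 in controls. The differences of the receptors tested and the list medians are therefore given with and without mutant 2, as are some single genes. Other results include mutant 2.

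The regulatory sequence upstream of the receptors is shown because SRF acts by binding a DNA element, the CArG box, in the control regions of its target genes. RefSeq entries (GRCm38.p6) were matched for 4 of the 5 measured members, Avpr1a, Ednrb, Adra1b and Htr2b. The 250 bases before the annotated start are printed for Avpr1a, at chr10:122448249-122448498 on the plus strand, and for Ednrb, at chr14:103843702-103843951 on the minus strand. They are written 5′ to 3′ along the gene, with capitals for a match to the TATA motif TATAAA, to the motif CCAAT or to the GC box GGGCGG, each searched on both strands.
Avpr1a: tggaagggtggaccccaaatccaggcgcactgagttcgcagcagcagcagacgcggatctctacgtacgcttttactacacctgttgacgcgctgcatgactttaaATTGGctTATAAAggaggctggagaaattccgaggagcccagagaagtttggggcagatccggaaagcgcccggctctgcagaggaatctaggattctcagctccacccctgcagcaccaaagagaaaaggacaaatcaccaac
Ednrb: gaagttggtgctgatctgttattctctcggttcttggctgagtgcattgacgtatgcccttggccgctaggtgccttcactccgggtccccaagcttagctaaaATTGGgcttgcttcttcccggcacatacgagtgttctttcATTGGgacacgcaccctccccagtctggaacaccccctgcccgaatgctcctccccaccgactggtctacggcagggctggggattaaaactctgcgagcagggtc

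In the Avpr1a window the capitals mark TATAAA from base -137 to -132 and CCAAT, on the other strand, from -144 to -140, counted back from the annotated start. In the Ednrb window they mark 2 matches to CCAAT on the other strand, from -146 to -142 and from -106 to -102. Over all 32851 RefSeq windows of this length, 12.4% held TATAAA, 33.8% held CCAAT and 32.7% held GGGCGG. No exact CArG box lay in the 5 windows of these 4 members (Adra1b has 2 annotated starts), and 1.47% of all windows held one. These are matches of letters within 250 bases and describe neither binding nor its absence.

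The receptor genes were measured as follows between mutant and control aorta. Of the 8 probe sets, 6 passed the filter on dim probe sets, those of Avpr1a, Agtr1a and Ednrb. None of the 6 passed the limma test at an adjusted p of 0.05, and across all probe sets tested 0% passed. At an unadjusted p under 0.05, both probe sets of Avpr1a were higher in mutants and none of the other 4 was, while the share of all probe sets higher at that threshold was 4.5%. The 2 Avpr1a probe sets measure 1 gene and count as a single observation. Without mutant 2 the differences of Agtr1a and Ednrb were between -0.02 and 0.04.

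**Figure D1:**
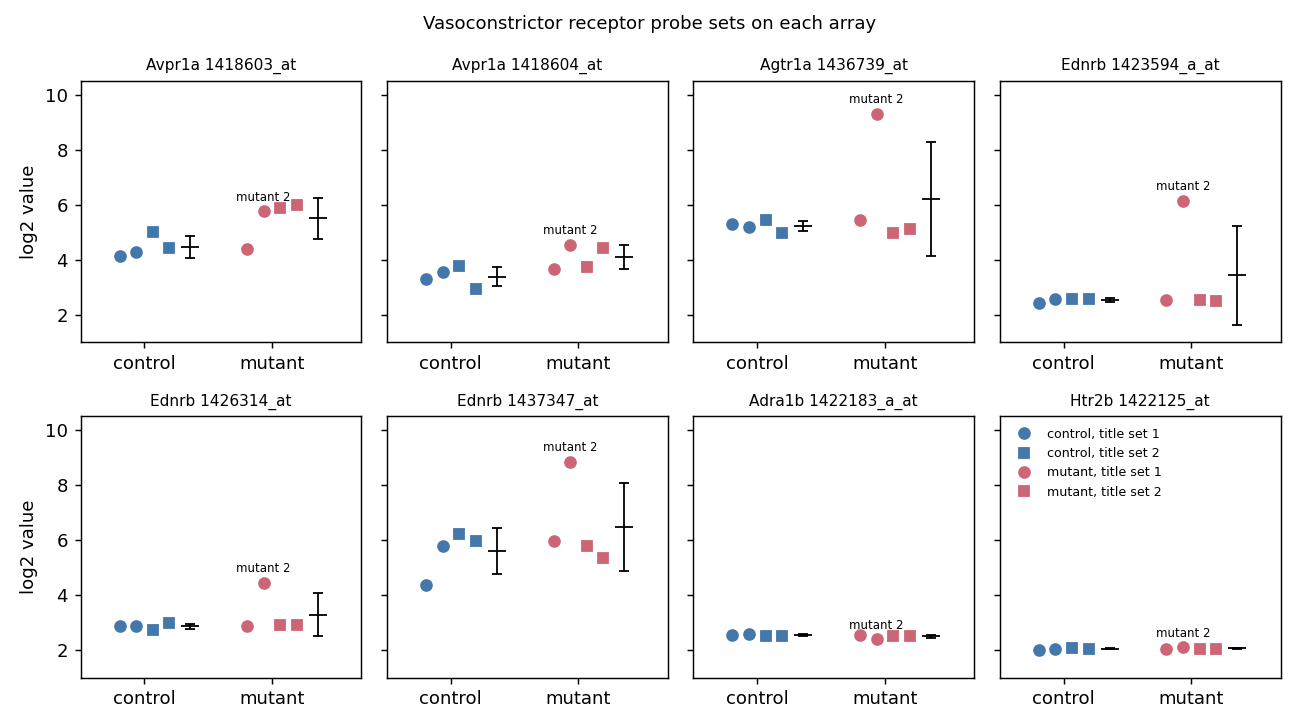
Log2 values of the 8 receptor probe sets on each array (y axis), by group (x axis), with circles for title set 1 and squares for title set 2; black dashes and bars give the mean and SD of 4 arrays. Avpr1a is higher in 3 of 4 mutants at 1418603_at, whereas Agtr1a and Ednrb stand well above the rest on mutant 2 alone.

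Avpr1a, the V1a receptor through which vasopressin constricts vessels, was at 4.12, 4.28, 5.02 and 4.44 in controls 1 to 4 and at 4.38, 5.76, 5.89 and 5.99 in mutants 1 to 4 (log2 values of probe set 1418603_at). Mutants 2, 3 and 4 were above every control, and mutant 1 lay among the controls, so the groups overlapped. The group means of 4.47 ± 0.39 (SD, n = 4) for controls and 5.51 ± 0.76 for mutants differed by 1.04 (SE 0.30, 95% confidence interval 0.32 to 1.76), or 2.06-fold. Limma gave an unadjusted p of 0.0113 and an adjusted p of 0.448, so the difference did not pass over all probe sets. Permuting the group labels of the 8 arrays (exact test, two-sided) gave p = 0.0857, and 4 arrays a group cannot go below 0.0286.

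Within each title set both mutants were above both controls at this probe set, which held for 1 of the 6 receptor probe sets tested. The same pattern was met by 4.11% of all probe sets tested. The difference was 0.87 in title set 1 and 1.21 in title set 2, and the interaction of genotype and set was 0.34 (SE 0.64, limma adjusted p = 0.893). Without mutant 2 the difference was 0.80 (limma unadjusted p = 0.0184, adjusted p = 0.481). Without mutant 1 it was 1.35 (SE 0.18, limma unadjusted p = 0.000303, adjusted p = 0.444). Mutant 1 was the lowest mutant, and leaving out the lowest favours a larger difference. With each array left out in turn, the limma unadjusted p ran from 0.000303 to 0.0361.

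The second Avpr1a probe set, 1418604_at, gave lower log2 values and a smaller difference. Controls 1 to 4 were at 3.29, 3.54, 3.78 and 2.94 and mutants 1 to 4 at 3.68, 4.53, 3.75 and 4.43. Mutants 2 and 4 were above every control, and mutants 1 and 3 lay just below control 3, the highest control. The means were 3.39 ± 0.36 for controls and 4.10 ± 0.44 for mutants and differed by 0.71 (SE 0.27, 95% confidence interval 0.07 to 1.35), or 1.64-fold. The limma adjusted p was 0.505 and the two-sided exact permutation p was 0.0857. The difference was 0.69 in title set 1, 0.73 in title set 2 and 0.54 without mutant 2. The probe sets placed mutant 3 differently, among the 3 highest arrays at 1418603_at and just below control 3 at 1418604_at.

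Levels of cell type lists on the same arrays are given here beside Avpr1a. Markers of adventitial fibroblasts were higher on average in mutants in 8 of 8 measured genes, with mean log2 levels of 10.02 to 11.28 in controls and 11.33 to 11.57 in mutants. Control 3, the highest control for both Avpr1a probe sets, was at 11.28 for this list, the highest control level. Mutant 1, the lowest mutant for Avpr1a at 1418603_at, was at 11.46 for this list, within the range of the other mutants. Macrophage and leukocyte markers were higher on average in mutants in 10 of 10 measured genes. Their mean log2 levels were 5.07 to 5.92 in controls and 5.98 to 7.06 in mutants, and Itgam was below the filter. Control 3 was again the highest control (5.92), and mutant 1 was the highest mutant (7.06). Of the other lists, control 3 was the highest control for adipocyte (8.94), Schwann cell and nerve (5.51) and striated muscle markers, and not for the rest. Endothelial markers were also higher on average in 10 of 10, with levels that overlapped (7.15 to 8.10 in controls and 7.75 to 9.80 in mutants). The lowest mutant level lay just above the highest control level for the fibroblast list (11.33 and 11.28) and the macrophage list (5.98 and 5.92). No share over all genes was computed for such gaps in list levels. Smooth muscle markers were higher on average in mutants in 0 of 8. That list includes Tagln, whose locus carries the Cre in the mutants alone, and SRF is a transcription factor of muscle genes. The list therefore does not measure the number of smooth muscle cells. Over all genes tested, 55.0% were lower in mutants. Markers of striated muscle were at 8.62 in control 3, and at 3.51 to 6.36 in the other controls and 3.70 to 7.04 in mutants. The part of these cell types in the Avpr1a difference was not tested, and in whole-tissue RNA more cells of a type and more RNA per cell cannot be told apart.

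Agtr1a, a receptor of angiotensin II, was at 5.29, 5.18, 5.43 and 4.99 in controls 1 to 4 and at 5.44, 9.30, 4.97 and 5.12 in mutants 1 to 4 (probe set 1436739_at). Mutant 2 was 3.86 log2 units above the next highest array, and the other 7 arrays lay between 4.97 and 5.44. The difference of group means, 5.22 ± 0.19 in controls and 6.21 ± 2.07 in mutants (SD, n = 4), was 0.99 (SE 0.86, 95% confidence interval -1.06 to 3.03, limma adjusted p = 0.671). It was 2.14 in title set 1 and -0.17 in title set 2. Without mutant 2 it was -0.02 (SE 0.15), so the other 3 mutants, with a mean of 5.18, did not differ from controls beyond the spread between arrays.

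Ednrb, the endothelin B receptor, showed the same array pattern in its 3 probe sets. At 1437347_at controls 1 to 4 were at 4.36, 5.80, 6.23 and 5.98 and mutants 1 to 4 at 5.96, 8.86, 5.80 and 5.35. Mutant 2 was highest by 2.63, control 1 was lowest, and the other 6 arrays lay between 5.35 and 6.23. The means were 5.59 ± 0.84 for controls and 6.49 ± 1.60 for mutants and differed by 0.90 (SE 0.83, 95% confidence interval -1.07 to 2.87, limma adjusted p = 0.682). In title set 1 both mutants were above both controls (2.33), and in title set 2 both were below (-0.53). The interaction of genotype and set, -2.86 (SE 1.35), did not pass (limma adjusted p = 0.824). Without mutant 2 the difference over both sets was 0.03 (SE 0.44), and without control 1 it was 0.33.

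The other Ednrb probe sets were dim outside mutant 2. At 1423594_a_at mutant 2 was at 6.14, and the other 7 arrays lay between 2.43 and 2.57. At 1426314_at mutant 2 was at 4.46, and the other 7 lay between 2.72 and 2.97. Both passed the filter on low means only through mutant 2, with means over all arrays of 2.98 and 3.08 against a lowest mean kept of 2.97. The differences were 0.91 (SE 0.77, limma adjusted p = 0.668) and 0.43 (SE 0.34, adjusted p = 0.66). Without mutant 2 they were 0.00 (SE 0.05) and 0.04 (SE 0.07).

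**Figure D2:**
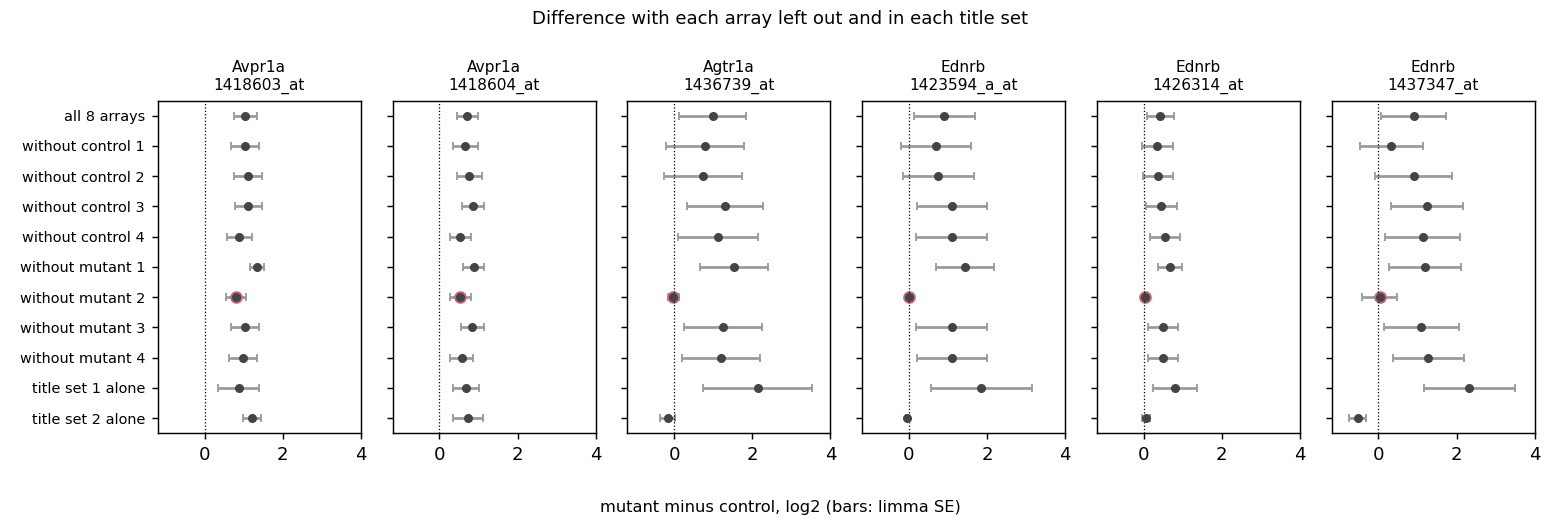
Mutant minus control difference in log2 units (x axis) with its limma SE for the 6 receptor probe sets tested, with all 8 arrays, with each array left out, and in each title set alone (y axis). Avpr1a stays between 0.80 and 1.35 at 1418603_at when any array is left out, and Agtr1a and Ednrb lie between -0.02 and 0.04 when mutant 2 is left out (red points).

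Several cell type lists were highest in mutant 2 as well. Schwann cell and nerve markers were highest there in 4 of 5 measured genes (mean log2 level 8.05, against 5.32 to 5.56 in the other mutants and 4.68 to 5.51 in controls), with Gfap below the filter. Adipocyte markers were highest there in 7 of 7 (11.53, against 7.94 to 9.45 and 7.57 to 8.94), with Lep below the filter. Endothelial markers were highest there in 9 of 10 (9.80, against 7.75 to 8.99 and 7.15 to 8.10). Mutant 1 had the next highest endothelial level (8.99). Its Ednrb value at 1437347_at was 5.96, above controls 1 and 2 of its own title set (4.36 and 5.80). At 1423594_a_at it was 2.55, between those controls (2.43 and 2.56). Both values of mutant 1 lay within the range of the arrays of title set 2. Agtr1a and Ednrb were thus high on the array with the high neuron, Schwann cell, fat and endothelial markers, and the part of these cells in the values was not tested.

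**Figure D3:**
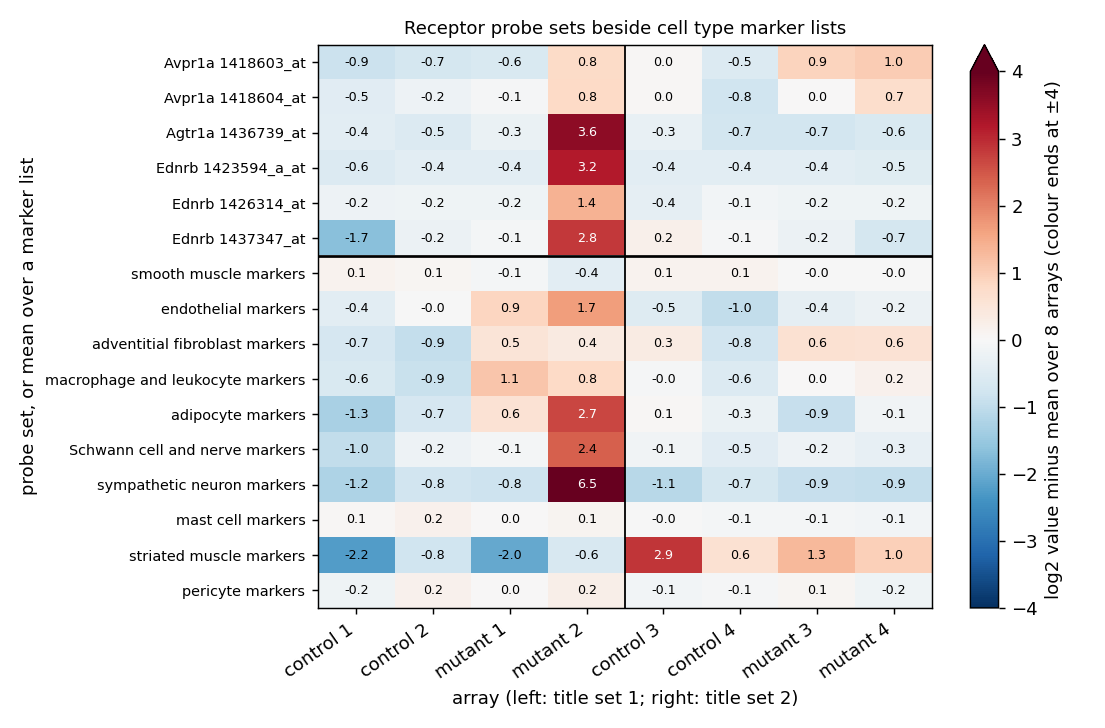
Log2 value minus its mean over 8 arrays (colour and printed number) for the 6 receptor probe sets tested and for the mean of each cell type marker list (rows), on each array (columns, title set 1 left and title set 2 right). Agtr1a and the 3 Ednrb probe sets stand out on mutant 2 together with sympathetic neuron, adipocyte and Schwann cell markers. Avpr1a is also high on mutant 4 at both probe sets and on mutant 3 at 1418603_at, where those lists are not. The adventitial fibroblast list is above its mean on mutants 3 and 4 (0.61 and 0.57), on mutants 1 and 2 (0.50 and 0.37) and on control 3 (0.32).

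The remaining measured receptors gave low and nearly constant signals. Adra1b, an alpha1 adrenergic receptor (1422183_a_at), was at 2.55 ± 0.03 in controls and 2.50 ± 0.07 in mutants, with all 8 arrays between 2.39 and 2.59. Htr2b, the serotonin 2B receptor (1422125_at), was at 2.05 ± 0.02 in controls and 2.07 ± 0.02 in mutants, with all arrays between 2.02 and 2.10. Both had means below the filter, and with no filter the limma differences were -0.05 (SE 0.04, adjusted p = 0.863) and 0.02 (SE 0.02, adjusted p = 0.87). Mutant 2, the highest array for Agtr1a and Ednrb, was the lowest for Adra1b. The table used holds no detection calls, so a low value here means a signal near the bottom of the scale and not that the gene is absent.

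The title set had no called effect on the receptors. The difference of set 2 minus set 1 passed at an adjusted p of 0.05 in 0 of the 6 receptor probe sets, while 21.4% of all probe sets tested passed it. The 6 probe sets measure 3 genes, too few to tell their count from that share. For Agtr1a and Ednrb the set difference also holds the high values of mutant 2, an array of title set 1 (Agtr1a -1.18, SE 0.86). The smallest p of the 6 belonged to Avpr1a at 1418603_at, where set 2 was higher by 0.70 (SE 0.30, limma unadjusted p = 0.0551, adjusted p = 0.139). The second probe set of the same gene differed by -0.04 (SE 0.27).

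Genes around the receptors were examined in 4 lists by role, with 1 probe set a gene, and none of their genes passed over all probe sets with limma. Over all 12176 genes tested, the median difference was -0.02, 55.0% were lower in mutants, 5.8% were higher and 4.6% lower at an unadjusted p under 0.05.

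In the list of ligands and of the enzymes and transporters that make or remove them, 13 of 16 genes tested were higher in mutants, with a median difference of 0.44, but without mutant 2 the split was 6 higher and 10 lower and the median -0.01. At an unadjusted p under 0.05, 2 were higher and 0 lower. These were Ece1, which cleaves the endothelin precursor into active peptide (0.58, SE 0.12, limma adjusted p = 0.384), and the aminopeptidase Anpep (0.96, SE 0.23, adjusted p = 0.389). Without mutant 2 they differed by 0.49 and 0.91. Edn1, which encodes endothelin 1, had a mean of 8.80 ± 0.09 in controls and of 9.10 ± 0.41 in mutants (difference 0.30, SE 0.14, adjusted p = 0.551), with 0.02 in title set 1 and 0.58 in title set 2. Edn3, another endothelin gene, differed by 0.59 (SE 0.32).

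The highest differences in that list belonged to catecholamine genes, named after their values were seen. Slc6a2 differed by 2.37, Dbh by 2.16, Th, the rate-limiting enzyme of catecholamine synthesis, by 1.94, and Ddc, which makes dopamine from its precursor, by 1.84. Without mutant 2 these 4 differences were -0.14, -0.05, 0.00 and -0.40, in the same order. On the other 7 arrays Th lay at 2.15 to 2.20 and Slc6a2 at 2.22 to 2.74. Both thus passed the filter (lowest mean kept 2.97) only through mutant 2. Dbh lay at 2.77 to 3.19 and Ddc at 2.48 to 4.00 on those arrays. The counts and medians of the ligand list, with and without mutant 2, include these 4 genes.

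In the list of other receptors of vessel tone, 13 of 27 genes were higher, 13 lower and 1 equal, with a median of 0.00. At an unadjusted p under 0.05, 4 were higher and 3 lower, and without mutant 2 the median was 0.01. The smallest p belonged to the prostaglandin receptor Ptger4 (0.98, SE 0.19, limma adjusted p = 0.376), followed by Ramp2, which pairs with the calcitonin receptor-like receptor to bind adrenomedullin (1.18, SE 0.26), the natriuretic peptide clearance receptor Npr3 (-0.52, SE 0.13) and the nucleotide receptor P2ry6 (-0.49, SE 0.15). All 4 had the same sign in both title sets, which choosing them by their p over both sets favours. Tbxa2r, the receptor of the constrictor thromboxane, was named after its value was seen and went from 8.47 ± 0.21 to 8.06 ± 0.25 (-0.41, SE 0.14, adjusted p = 0.484). Mutant 2, at 7.81, was below the other 7 arrays for Tbxa2r (7.97 to 8.75), and without it the difference was -0.27. Agtr1b, the paralogue of Agtr1a, was also named after its value was seen and was at 7.03 ± 0.23 in controls and 7.44 ± 0.40 in mutants (0.40, SE 0.23, adjusted p = 0.584). Mutant 2 did not stand apart for Agtr1b (7.72, against 6.87 to 7.82 on the other arrays), unlike for Agtr1a. The probe sequences were not used here, so cross-hybridization between these similar genes was not tested.

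In the list of Gq and G12/13 coupling and calcium release, 17 of 29 genes were lower and 12 higher, with a median of -0.06 and of -0.02 without mutant 2. At an unadjusted p under 0.05, 5 were lower and 2 higher. Ppp1r14a, an inhibitor of myosin phosphatase that protein kinase C activates, was at 13.25 ± 0.26 in controls and 12.66 ± 0.26 in mutants (-0.59, SE 0.06, limma adjusted p = 0.102). The phospholipase C gene Plcb4 went from 12.59 ± 0.22 to 12.06 ± 0.19 (-0.53, SE 0.09, adjusted p = 0.376) and the calcium channel gene Cacna1c from 8.43 ± 0.33 to 7.90 ± 0.25 (-0.53, SE 0.12). The calcium release channel gene Itpr2 went the other way (0.82, SE 0.25), with 1.26 in title set 1, 0.38 in title set 2 and 0.56 without mutant 2. Gnaq, which encodes the G protein subunit that gives Gq its name, differed by 0.15 (SE 0.07) and was named after its value was seen.

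In the list of receptor desensitization, 8 of 12 genes were higher and 4 lower, with a median of 0.07 and of 0.08 without mutant 2. Arrb1, a beta-arrestin that uncouples receptors from G proteins, was the only one of them at an unadjusted p under 0.05, at 6.97 ± 0.27 in controls and 7.69 ± 0.18 in mutants (0.72, SE 0.14, limma adjusted p = 0.376). It differed by 0.91 in title set 1 and 0.54 in title set 2. The other beta-arrestin gene Arrb2 differed by 0.43 (SE 0.18), the regulator of G protein signalling Rgs2 by -0.35 (SE 0.19) and the receptor kinase gene Grk3 by 0.78 (SE 0.44), the last by 0.32 without mutant 2. The sign of the Rgs2 difference was not the same in the title sets (0.13 in set 1 and -0.83 in set 2).

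**Figure D4:**
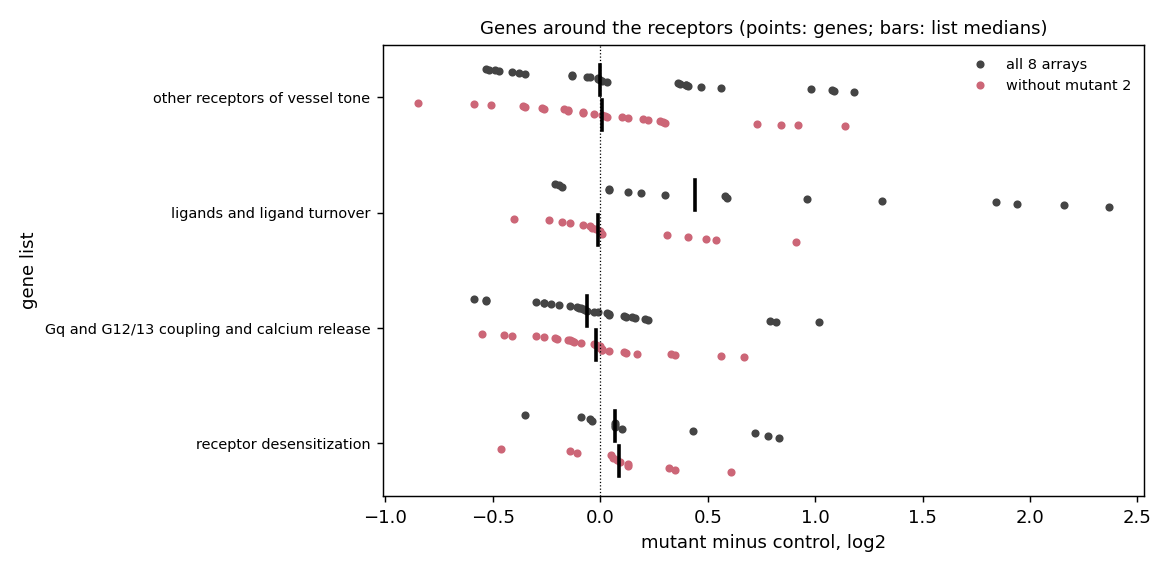
Mutant minus control difference in log2 units (x axis) of each gene tested in 4 lists around the receptors (y axis), with all 8 arrays in grey and without mutant 2 in red; black bars are list medians. The median of the ligand list moves from 0.44 to -0.01 when mutant 2 is left out, and the other medians stay between -0.06 and 0.08.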

How the data were processed

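Values were used as deposited: the authors' table holds 1 log2 value per probe set and array, and that scale was inferred from their range. GCOS is named in the submitters' processing notes, and how values were corrected, normalized and summarized is not stated there. Probe sets were named from the platform annotation (1 symbol for 34945, several for 932, none for 9160 of 45037). The 40% with the lowest mean over all arrays were left out, and 27029 were tested. Limma 3.58.1 (R 4.3.3) was fitted across all of them with genotype and title set as terms and a mean-variance trend, with Benjamini-Hochberg adjustment and a threshold of 0.05, and was tested on simulated data. Exact permutation p-values are for single probe sets and unadjusted. List genes were represented by their brightest probe set. Replicates were numbered in sample order and pair nothing.

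The members, the lists, the tests and the alternatives were chosen with earlier results of these data known. The genes named are all members, Srf and, from each list, the 4 with the smallest p. Other genes are said to be named after their values were seen, except the 2 markers given for mutant 2, which were also chosen that way. No list was tested as a set. Markers of mast cells and pericytes were also listed: 5 of 6 measured mast cell genes were below the filter, and pericyte markers were at mean log2 levels of 10.41 to 10.74 in controls and 10.42 to 10.79 in mutants. Figures were drawn with Python 3.11.15.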

Additional observations from a re-analysis of the deposited data

Results flagged for a closer look

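In groups of 4 arrays, 1 array lay far from the other 3 in 6 of the 16 groups checked (8 probe sets in each genotype). By chance the rule flags about 1 in 20 independent groups. The groups here share the same arrays, and some probe sets measure the same gene, so the count cannot be set against that rate. Mutant 2 was the array flagged in 4 of the 6 groups: at 9.30 for Agtr1a, at 6.14 (1423594_a_at) and 4.46 (1426314_at) for Ednrb, and, as the lowest array, at 2.39 for Adra1b. The distance for Adra1b was small, since all arrays lay within 0.20. Mutant 1 was at 4.38 for Avpr1a (1418603_at), below the other 3 mutants, and control 1 was at 2.43 for Ednrb (1423594_a_at), below the other 3 controls.

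For Ednrb at 1437347_at both mutants were above both controls in title set 1 and below them in title set 2. The change in the genotype difference from set 1 to set 2 was -2.86 (SE 1.35), which did not pass the interaction test in limma (unadjusted p = 0.0782, adjusted p = 0.824).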

How the results depend on the processing

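No receptor probe set passed in any of the 18 alternatives. Avpr1a stayed higher in mutants in the 17 in which it was tested, by 0.77 to 1.35 at 1418603_at (limma adjusted p 0.314 to 0.935) and by 0.54 to 0.88 at 1418604_at (0.394 to 0.935), and the stricter filter kept neither. With each array left out in turn, Agtr1a ranged from -0.02 to 1.53 and Ednrb from 0.00 to 1.44, 0.04 to 0.67 and 0.03 to 1.28 in its 3 probe sets. In title set 2 alone the sign turned for Agtr1a (-0.17) and for Ednrb at 1423594_a_at (-0.04) and 1437347_at (-0.53). With weights per array, in which mutant 2 had the lowest weight (0.155), Agtr1a differed by 0.12 and Ednrb by 0.06 to 0.21. Receptor probe sets at an unadjusted p under 0.05 numbered 1 to 2 with an array left out, 0 with the stricter filter or in title set 1 alone and 1 in title set 2 alone. They numbered 1 without control 1, control 2, control 4, mutant 2 or mutant 4. Of all probe sets, 10 passed with array weights and 0 to 11 with an array left out (11 without control 3). At an unadjusted p under 0.05 there were 2580, which became 1427 to 2944 with an array left out (1427 without control 1), 1485 in title set 2 alone and 1279 without the title set as a block. Without that block Avpr1a differed by 1.04 and 0.71 (adjusted p = 0.935 for both). Median centring moved the median of all genes from -0.02 to -0.09 and that of the Gq list to -0.14. The cause of these changes was not tested. The 4 arrays a group limit what could be called.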
